A study of Mus musculus with 2 samples.

Results

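Dividing medullary epithelial cells were picked from 2 droplet libraries of thymic stroma by their unique molecular identifiers (UMIs), the tags that count single RNA molecules. A barcode counted as a cell at 500 or more genes, 1000 or more UMIs and at most 10% mitochondrial UMIs. A dividing medullary cell then needed 3 or more UMIs of Epcam, Krt8, Krt18 and Cldn4, 4 or more UMIs of Mki67, Top2a, Cdk1, Ube2c, Nusap1 and Cenpf, at most 1 UMI of the CD3 and CD8 genes, and under 20 UMIs of the cortical genes Psmb11, Prss16 and Ccl25 per 10000. This gave 77 of 3588 cells in library 1 and 56 of 8186 cells in library 2, 133 of 11774 cells in all. These 18 genes chose the cells, so their levels are given as a description and were not tested.

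Both libraries came from E2F_M11 mice, in which CRISPR-Cas9 had removed 2 E2F binding sites from the proximal promoter of Foxn1. Thymi were digested with enzymes, erythrocytes were burst, and beads against CD45 removed most blood cells, a step that sets the share of thymocytes left. The labels give no age or strain and do not say whether the libraries came from separate animals. The p-values measure only how far differences between classes vary from library to library, which may be technical. That spread was estimated jointly over the 6 classes summed, some of them with few cells. No other genotype was analysed here, and no value below measures what the deletion does. The dividing medullary cells were set against 3 classes cut by the same kind of gate. Resting medullary cells, with the same epithelial gate and 0 UMIs of the 6 dividing genes, numbered 620 and 635 in libraries 1 and 2. Dividing cortical epithelial cells, at or over the cortical limit, numbered 4 and 7. Dividing thymocytes, with 0 epithelial UMIs and 3 or more UMIs of the CD3 and CD8 genes, numbered 11 and 640.

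Medullary thymic epithelial cells show developing T cells a broad sample of the body's own proteins. AIRE and FEZF2 are the transcription regulators that switch on many of these self-antigens, and CCL21 is the chemokine that draws positively selected thymocytes into the medulla. FOXN1 drives thymic epithelial differentiation, and dividing cells replenish an epithelium that turns over through life. E2F proteins bind DNA with a DP partner and control genes of DNA synthesis. E2F1 to E2F3 are classed as activators and E2F4 to E2F8 as repressors, and Rb proteins hold the activators in check until cyclin D kinases act on them.

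Depth differed between the libraries, which held 41075328 and 42583831 UMIs in 5110 and 19163 barcodes. Dividing medullary cells had medians of 27275 and 3689 UMIs, against 9631.5 and 2107 in resting medullary cells. A gate on a fixed number of dividing UMIs is easier to pass in a deep cell. Levels are given as CPM, the UMIs of a gene scaled to a fixed total over each class's summed UMIs. This scaling does not undo the choice of deeper cells. The part of that choice in the differences from resting medullary cells was not tested. The 5 deepest dividing medullary cells held 13.6% of that class's UMIs in library 1 and 36.2% in library 2. The libraries shared 30 barcodes, none of them a dividing medullary cell.

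Genes of the gate are high by choice, and markers outside it check the label. Epcam, the adhesion molecule of epithelia, stood at 1015 and 791 CPM in the dividing medullary cells of libraries 1 and 2, against 911 and 818 CPM in resting medullary cells. Mki67 reached 320 and 321 CPM, Top2a 567 and 411 CPM, and Cdk1 168 and 122 CPM in the dividing medullary cells, and the resting class was at 0 by its definition. The 10 medullary markers summed to 3192 and 2628 CPM in dividing medullary cells, against 5940 and 5596 CPM in resting medullary cells, with none at 0 in either class. In dividing cortical cells they summed to 1602 and 2291 CPM and in resting cortical cells to 2204 and 2520 CPM, so in library 2 this sum was close to that of cortical cells. The 6 cortical markers outside the gate summed to 827 and 681 CPM, against 12124 and 4552 CPM in dividing cortical cells. The 12 thymocyte markers outside the gate summed to 149 and 420 CPM, against 3498 and 4155 CPM in dividing thymocytes and 210 and 588 CPM in resting medullary cells. In library 2, 36 of the 56 dividing medullary cells held over 5 thymocyte-marker UMIs per 10000, against 12 of 77 in library 1. Fibroblast markers took over 10 UMIs per 10000 in 4 of 77 and 29 of 56 dividing medullary cells, against 97 of 620 and 339 of 635 resting medullary cells. No Epcam UMI was found in 2 and 14 of the dividing medullary cells. No doublet caller was used, so droplets with an epithelial cell and a thymocyte or fibroblast may be among the cells.

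At the edge of the gate, 10 cells of library 1 and 19 of library 2 had exactly 4 dividing UMIs, and 24 and 48 cells that met the other criteria had 3. The median dividing medullary cell held 13 dividing UMIs in library 1 (range 4 to 424) and 6 in library 2 (range 4 to 164). Dividing cells made up 7.40% of all cells past the medullary gate in library 1 (77 of 1040, 95% exact Clopper-Pearson interval 5.89% to 9.17%) and 4.93% in library 2 (56 of 1137, 3.74% to 6.35%). These intervals cover counting error only. Among cells with 2000 or more UMIs the shares were 7.72% and 7.04%, so much of the gap between the libraries was not seen at that depth.

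Genes of the whole division cycle stood high in the dividing medullary cells. The 40 measured genes of the G2/M and mitosis list had a median log2 fold of 3.89 over resting medullary cells, and all 40 were higher in both libraries. The 38 genes of the G1/S and DNA replication list had a median of 2.23, with 36 higher in both libraries, and the 17 chromatin and tubulin genes had a median of 1.69, with 17 higher in both. The median over all 13408 genes tested was -0.16. These lists follow from the gate on dividing genes, so no test of them is given.

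Cks2, a small subunit that binds the cell cycle kinases, stood at 256 and 392 CPM in dividing medullary cells of libraries 1 and 2, against 15.0 and 21.7 CPM in resting medullary cells. Dut, the enzyme that keeps uracil out of DNA, stood at 283 and 206 CPM, against 37.2 and 43.0 CPM. Hells, a chromatin remodeller of replicating DNA, stood at 178 and 60.3 CPM, against 14.1 and 4.73 CPM. The classes did not overlap for any of the 3 genes, which follow the gate. How many of all genes showed no overlap was not counted. Of 13408 genes, 3861 were higher and 6056 lower in dividing medullary cells in both libraries. H2afz, a histone variant, was the most abundant of the chromatin genes after Ptma, at 1992 and 2150 CPM in dividing medullary cells, against 355 and 378 CPM in resting medullary cells. Pcna, the sliding clamp of DNA polymerase, differed less, with 151 and 92.2 CPM, against 44.3 and 47.7 CPM.

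The promoters of these genes were searched for 2 kinds of sequence known from cell cycle control. An E2F match was any of TTTCCCGC, TTTGGCGC, TTTCGCGC or TTTGCCGC, and a CHR match, the element named cell cycle genes homology region, was TTTGAA, each on both strands of the 250 bases before the annotated start. The sequences are those of RefSeq on GRCm38.p6. The E2F words were found in 10 of the 32 G1/S promoters in the table (31.2%), in 6 of 18 of the E2F and Rb network (33.3%) and in 0 of 32 of the G2/M list, against 2.16% of 27025 genes and 3.77% of the 10410 tested genes with a promoter. CHR matches were found in 5 of the 32 G1/S promoters (15.6%), in 9 of the 32 G2/M promoters (28.1%) and in 7 of the 18 network promoters (38.9%), against 18.3% of all genes and 13.3% of tested genes. A match is a description of letters and not a bound site.

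Below are 4 of these promoters, shown because they belong to the gene altered in these mice, the E2F gene with the largest fold, a replication gene and a mitotic gene. Capitals mark a match, here the E2F word TTTCCCGC (on the minus strand in E2f7, where it reads GCGGGAAA) and the CHR word TTTGAA. Foxn1 lies at chr11:78386609-78386858 on the minus strand, E2f7 at chr10:110745189-110745438 on the plus strand, Hells at chr19:38930740-38930989 on the plus strand and Ccnb2 at chr9:70421555-70421804 on the minus strand. The Foxn1 window has neither word, which says only that these letters are not in these 250 bases of the reference sequence. The Foxn1 span given further below comes from another annotation and ends short of this window, so the bases between them were not searched.
Foxn1: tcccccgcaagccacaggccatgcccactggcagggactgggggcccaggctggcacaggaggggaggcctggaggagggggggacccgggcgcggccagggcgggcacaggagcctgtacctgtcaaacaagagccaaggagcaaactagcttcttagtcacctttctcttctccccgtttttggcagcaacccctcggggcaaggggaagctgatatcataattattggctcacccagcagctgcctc
E2f7: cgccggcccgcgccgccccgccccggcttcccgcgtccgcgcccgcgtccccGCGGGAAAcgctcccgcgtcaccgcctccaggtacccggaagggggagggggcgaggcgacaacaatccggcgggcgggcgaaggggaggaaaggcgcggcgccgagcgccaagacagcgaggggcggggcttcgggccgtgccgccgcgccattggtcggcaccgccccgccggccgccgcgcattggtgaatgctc
Hells: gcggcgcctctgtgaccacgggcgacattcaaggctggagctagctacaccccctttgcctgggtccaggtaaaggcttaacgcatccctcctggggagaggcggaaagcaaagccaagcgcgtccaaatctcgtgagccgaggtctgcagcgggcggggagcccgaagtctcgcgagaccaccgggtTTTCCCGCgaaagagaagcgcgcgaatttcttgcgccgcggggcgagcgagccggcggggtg
Ccnb2: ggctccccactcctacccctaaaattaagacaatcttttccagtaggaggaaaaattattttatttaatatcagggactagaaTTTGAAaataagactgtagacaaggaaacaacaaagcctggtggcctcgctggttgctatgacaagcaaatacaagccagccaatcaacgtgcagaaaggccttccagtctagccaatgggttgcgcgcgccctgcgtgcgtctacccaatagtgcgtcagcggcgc

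Against resting medullary cells, 1530 of 13408 genes were called (11.4%). A call means an adjusted p (Benjamini-Hochberg) of up to 0.05 in edgeR's quasi-likelihood test on the class sums, with the library as a block. Of the called genes, 630 were higher (4.7% of genes tested) and 900 lower (6.71%) in dividing medullary cells. Counts of called list genes below are to be read beside these shares. In bulk sums of this kind, fewer cells of a state and less RNA per cell cannot be told apart. With every cell thinned to 1000 UMIs, 48 of 2405 genes tested were called.

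Within the E2F family, the atypical repressors E2f7 and E2f8 and the activator E2f1 were higher in dividing medullary cells. E2f7, which restrains E2F1 targets late in the cycle, stood at 39.1 and 33.7 CPM in dividing medullary cells of libraries 1 and 2, against 1.26 and 1.18 CPM in resting medullary cells (log2 fold 4.82, SE 0.499). E2f8, its close relative, stood at 20.2 and 12.4 CPM, against 1.54 and 4.73 CPM (2.72, SE 0.602). Both genes were higher in both libraries. Without the cilium-gene cells described below, the E2f7 fold over dividing thymocytes fell from 0.73 to -0.03, so part of its level lay in those cells. Against resting medullary cells, 6 of 23 E2F and Rb network genes were still higher without them. The activator E2f1 stood at 14.1 and 3.55 CPM, against 1.12 and 3.94 CPM. Its fold of 2.35 was called but rested on library 1, as library 2 alone gave -0.18.

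The other E2F genes differed less. E2f2 stood at 22.6 and 23.1 CPM, against 7.41 and 17.4 CPM, E2f3 at 23.5 and 10.6 CPM, against 10.6 and 10.3 CPM, and E2f4 at 17.9 and 8.87 CPM, against 19.2 and 24.1 CPM. E2f5 stood at 19.3 and 12.4 CPM, against 15.8 and 10.3 CPM, and E2f6 at 10.4 and 5.32 CPM, against 9.23 and 9.86 CPM. None of these 5 genes passed the test (log2 folds from -0.46 to 1.13). In the E2F and Rb network, 6 of 23 tested genes were higher and 0 lower, with a median log2 fold of 0.81. Besides E2f7, E2f8 and E2f1 the higher genes were Foxm1 and Mybl2, transcription factors of late cycle genes (log2 folds 2.76 and 2.06), and Tfdp1, the DP partner of E2F (1.52). Several of these genes are themselves periodic in the cycle and so track the gate.

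Cyclin D2 was the most abundant D-type cyclin of the dividing medullary cells. Ccnd2 stood at 901 and 477 CPM in dividing medullary cells, against 295 and 226 CPM in resting medullary cells, Ccnd1 at 99.8 and 115 CPM, against 72.3 and 95.5 CPM, and Ccnd3 at 44.2 and 49.7 CPM, against 60.1 and 95.8 CPM. The log2 folds were 1.37 (SE 0.565, adjusted p = 0.137), 0.34 (adjusted p = 0.62) and -0.71 (adjusted p = 0.199) in edgeR's test. The 2 libraries of each class did not overlap for Ccnd2 or Ccnd3, which was not counted over all genes. With 2 libraries this is weak evidence, as 3861 of 13408 genes were higher and 6056 lower in both. None of these 3 genes was called. Of 15 tested G1 cyclins, kinases and inhibitors, 2 were higher and 0 lower, against 4.7% and 6.71% of all genes tested. These were Cdk4, the kinase that cyclin D activates, at 213 and 177 CPM, against 70.9 and 82.4 CPM (1.32, SE 0.312), and Cdkn2c, the inhibitor p18, at 50.8 and 46.1 CPM, against 16.6 and 22.1 CPM (1.37, SE 0.321).

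**Figure D1:**
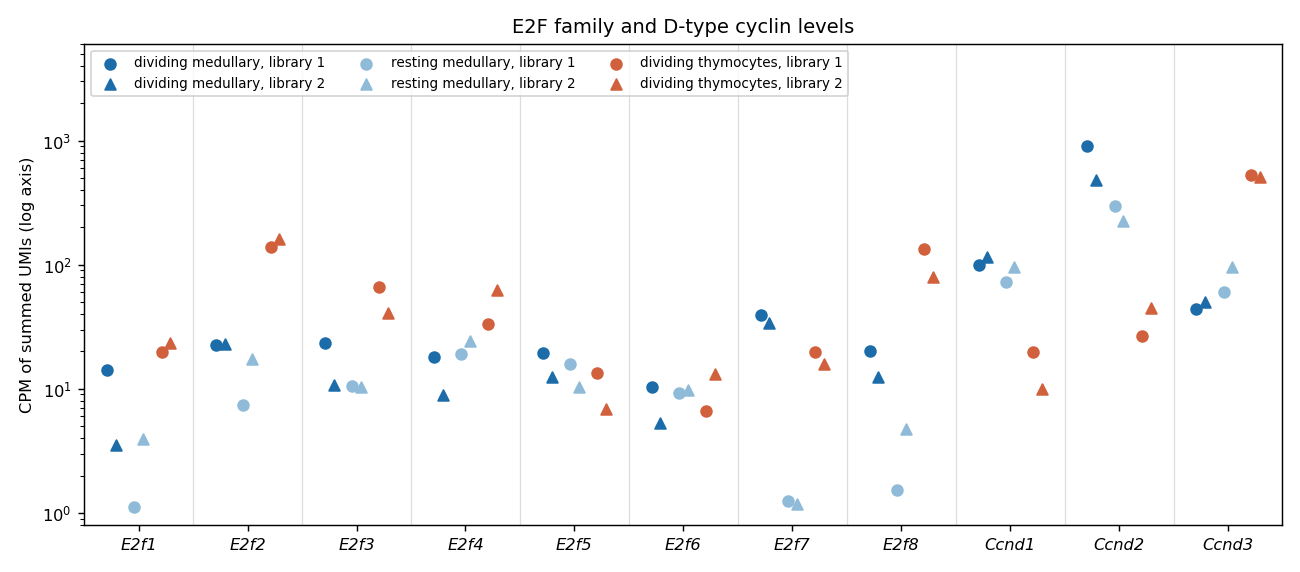
CPM of the E2F family and D-type cyclins on a log axis in the summed dividing medullary cells, resting medullary cells and dividing thymocytes; circles are library 1 and triangles library 2. E2f7 at 39.1 and 33.7 CPM in dividing medullary cells stands apart from 1.26 and 1.18 CPM in resting medullary cells, and Ccnd2 and Ccnd3 take opposite places in dividing medullary cells and dividing thymocytes.

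The dividing medullary cells held more Aire and Fezf2 RNA and less Ccl21a RNA than resting medullary cells. Aire (chr10:78030022-78043610, minus strand, GRCm38) stood at 482 and 303 CPM in dividing medullary cells of libraries 1 and 2, against 136.01 and 112.02 CPM in resting medullary cells (log2 fold 1.62, SE 0.369, edgeR adjusted p = 0.013). Fezf2 stood at 444 and 362 CPM, against 194 and 161 CPM (1.14, SE 0.345, adjusted p = 0.0478). Ccl21a, a gene with near-identical copies whose reads may be split by the counting, stood at 844 and 495 CPM, against 3593 and 3726 CPM (-2.40, SE 0.710, adjusted p = 0.0437). The libraries of the classes did not overlap for any of the 3 genes. The share of all genes without overlap was not counted, and 3861 of 13408 were higher and 6056 lower in both libraries. Cells with 1 to 3 dividing UMIs, 343 and 446 in number and in neither class, lay between for each gene, with Aire at 286 and 176 CPM and Ccl21a at 2631 and 3507 CPM. Resting cortical cells stood at 241 and 394 CPM for Aire, 354 and 394 CPM for Fezf2, and 887 and 794 CPM for Ccl21a. Such levels were thus not particular to dividing medullary cells.

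How firmly these calls stood differed between the genes. Aire was called in 13 of 15 other processing settings, and both Fezf2 and Ccl21a in 7 of 15. With every cell thinned to 1000 UMIs, so that each cell weighs the same, the Aire fold was 0.97 and was not called. Among medullary cells with an Aire UMI, a choice that itself fixes Aire, the fold of Ccl21a was -3.14 and was called.

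Foxn1 (chr11:78357577-78386558, minus strand, GRCm38), the gene whose promoter was altered, stood at 106 and 138 CPM in dividing medullary cells, against 56.3 and 60.7 CPM in resting medullary cells. Both libraries were higher in the dividing class, by log2 folds of 0.89 and 1.11, yet the joint fold of 1.00 (SE 0.333) did not pass the test (edgeR adjusted p = 0.0697, called in 3 of 15 other settings). Its UMIs were found in 48 of 77 and 14 of 56 dividing medullary cells. After thinning to 1000 UMIs its fold was 0.13.

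**Figure D2:**
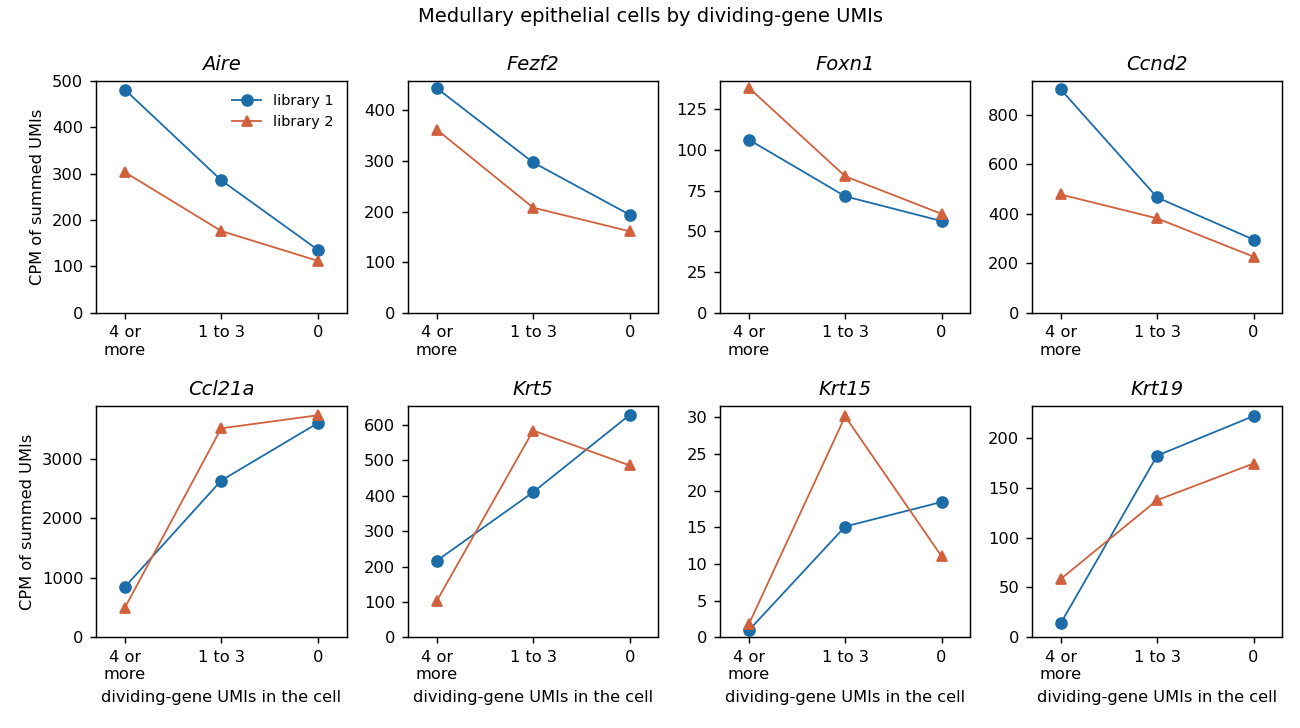
CPM of 8 genes in medullary cells with 4 or more dividing-gene UMIs (dividing medullary cells), 1 to 3 and 0 (resting medullary cells); each point is the sum over 1 library. Aire, Fezf2, Foxn1 and Ccnd2 are highest, and Ccl21a, Krt5, Krt15 and Krt19 lowest, in the dividing cells of both libraries.

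Thinned cells show what is seen per cell at equal depth. At 1000 UMIs, Aire was found in 24.7% of dividing medullary cells in library 1 (19 of 77, 95% exact interval 15.6% to 35.8%) and in 7.14% in library 2 (4 of 56, 1.98% to 17.3%), against 8.06% and 7.40% of resting medullary cells. Resting fibroblasts, which should lack the gene, gave 0.477% and 1.17%. In library 2 the share was thus like that of the resting cells, while the CPM was higher, and no order is read from that share. Unthinned, 72.7% and 33.9% of the dividing medullary cells had an Aire UMI, against 22.3% and 14.3% of the resting medullary cells.

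Fezf2 was found in 35.1% and 16.1% of thinned dividing medullary cells, against 11.9% and 10.2% of resting medullary cells, with 0.382% of fibroblasts in library 1 and 0 of 856 in library 2, with an exact upper limit of 0.430%. Ccl21a was found in 22.1% and 30.4% of dividing medullary cells, against 45.5% and 45.0% of resting medullary cells, and in library 2 the fibroblasts also gave 9.35%. Krt5 was found in 14.3% and 17.9%, against 34.0% and 25.5%. Foxn1 was found in 3.90% and 3.57%, against 2.90% and 3.94%, which is too few cells to order the classes. Ccnd2 was found in 37.7% and 12.5% of dividing medullary cells, against 17.4% and 18.9% of resting medullary cells and 13.1% and 10.4% of fibroblasts, so its share and its CPM went opposite ways in library 2.

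**Figure D3:**
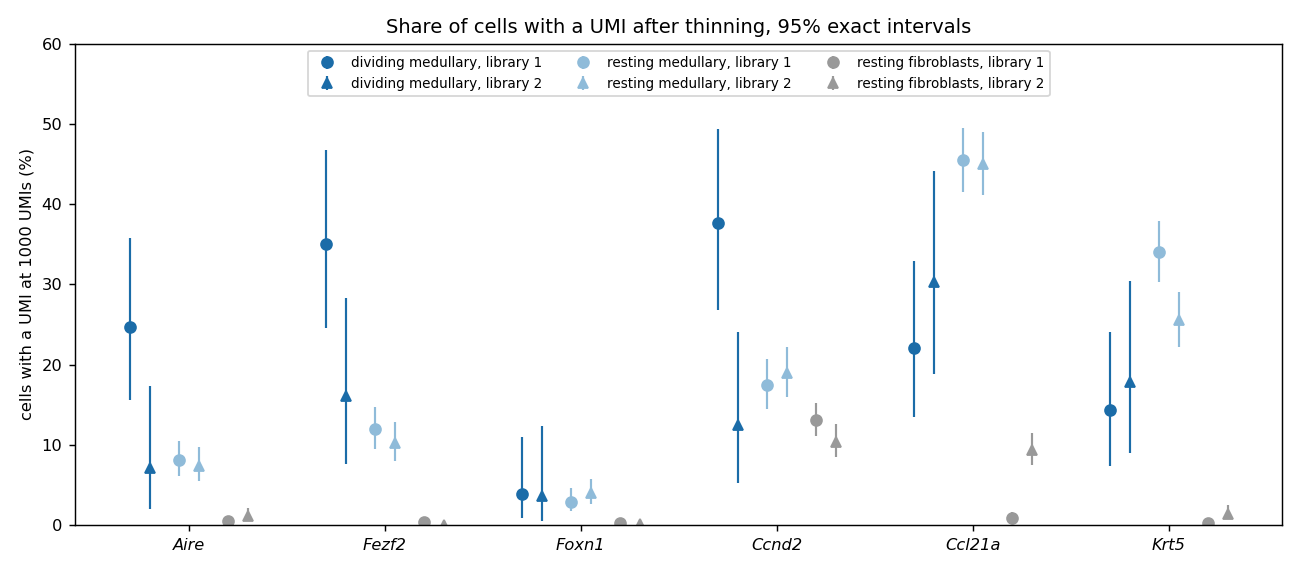
Share of cells with a UMI of each gene after every cell was thinned to 1000 UMIs, with 95% exact Clopper-Pearson intervals that cover counting error only; circles are library 1 and triangles library 2. Aire and Fezf2 were found in 24.7% and 35.1% of dividing medullary cells of library 1, above the resting medullary cells, and in library 2 the intervals of the 2 medullary classes overlap for all 6 genes.

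Across the 25 tested medullary regulators and products, 3 were higher and 2 lower in dividing medullary cells, with a median log2 fold of 0.18. Besides Aire, Fezf2 and Ccl21a these were Xcl1, the chemokine that gathers dendritic cells, and Ltbr, the lymphotoxin receptor of medullary development. Xcl1 stood at 120 CPM in dividing medullary cells, against 11.04 CPM in resting medullary cells, in library 1 and had 0 UMIs in both classes of library 2, so its call rests on library 1. Ltbr had 17 and 4 UMIs in dividing medullary cells, against 186 and 92 in resting medullary cells, whose sums are larger (-2.01, SE 0.395). Of 27 antigen presentation and costimulation genes, 2 were higher and 0 lower, with a median of -0.09. Over all genes tested, 4.7% were higher and 6.71% lower, so counts this small are not read as a result about either list. Icosl, a ligand that costimulates T cells, stood at 125 and 124 CPM, against 36.1 and 26.0 CPM (1.94, SE 0.323), and Cd40, the receptor through which T cells license medullary cells, at 105 and 145 CPM, against 56.6 and 41.8 CPM (1.26, SE 0.285). Cd74, the invariant chain of MHC class II, was at 10644 and 10590 CPM, against 7092 and 7284 CPM, and was not called.

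A part of the basal and progenitor genes was lower in the dividing medullary cells. Of 34 tested epithelial identity and progenitor genes, 0 were higher, 11 lower and 23 not called, with a median log2 fold of -0.90. Krt5, a basal keratin, stood at 217 and 103 CPM in dividing medullary cells, against 629 and 486 CPM in resting medullary cells (-1.83, SE 0.482), and Trp63, the basal epithelial factor p63, at 42.4 and 44.3 CPM, against 125 and 140 CPM (-1.65, SE 0.359). Krt19, a keratin of simple and progenitor epithelia, stood at 14.1 and 58.5 CPM, against 222 and 174 CPM (-2.80, SE 0.514). Ackr4, a scavenging chemokine receptor, had 11 and 0 UMIs in dividing medullary cells, against 251 and 108 in resting medullary cells (-3.27, SE 0.566). Krt15, a keratin of basal stem cells, had 2 UMIs in library 1 and 1 in library 2 in the dividing cells, and its CPM in resting medullary cells was 14.8-fold higher (95% counting interval 4.97 to 72.5). Such an interval pools the libraries, takes each UMI as an independent count and leaves out the spread between cells and libraries. Eya1, a factor of the pharyngeal pouches from which the thymus forms, stood at 22.6 and 23.1 CPM, against 76.0 and 78.9 CPM (-1.80, SE 0.311).

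Genes of mimetic cells, the medullary cells that take on features of peripheral tissues, were called in both directions. Of 23 tested, 2 were higher, 8 lower and 13 not called, with a median log2 fold of -1.06. Over all genes tested, 4.7% were higher and 6.71% lower. Ltf, the iron-binding lactoferrin, had 19 and 0 UMIs in dividing medullary cells, against 745 and 974 in resting medullary cells (-4.60, SE 0.660), and Gp2, the microfold cell receptor, had 11 and 0, against 311 and 132 (-3.64, SE 0.531). Alox5, the leukotriene enzyme of tuft cells, stood at 2.35 and 8.87 CPM, against 38.0 and 20.9 CPM (-2.91, SE 0.621). How many resting cells held the UMIs of these genes was not counted. The 2 higher genes were Foxj1, the factor of ciliated cells (2.24, SE 0.419), and Insm1, a factor of neuroendocrine cells, which stood at 168 and 90.5 CPM, against 51.9 and 30.4 CPM (1.62, SE 0.366). Without the 7 cells rich in cilium genes described below, the Foxj1 fold was 0.21 and was not called.

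Self-antigens of peripheral tissues were lower where they passed the test. Of 30 tested, 0 were higher and 8 lower, with a median log2 fold of -1.08. Fabp9, a fatty acid binding protein of testis, stood at 18.8 and 30.2 CPM in dividing medullary cells, against 162 and 312 CPM in resting medullary cells (-3.26, SE 0.386). As for the mimetic genes, the resting cells that held these UMIs were not counted. If few cells held them, 133 dividing cells, against 1255 resting cells, may miss them with no difference in level.

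Of 23 tested growth factor receptors, 0 were higher, 9 lower and 14 not called, with a median log2 fold of -1.12. Without the cilium-gene cells described below, 5 were lower, against 631 of 12923 over all genes. Tgfbr2, a receptor of TGF-beta, stood at 6.12 and 16.0 CPM in dividing medullary cells, against 38.7 and 58.8 CPM in resting medullary cells (-2.45, SE 0.533), and Fgfr2, the receptor of FGF7 and FGF10, at 11.3 and 10.6 CPM, against 43.3 and 37.9 CPM (-1.94, SE 0.380). Fzd2, a WNT receptor, stood at 8.47 and 10.6 CPM, against 54.8 and 33.1 CPM (-2.37, SE 0.412). Met, the receptor of HGF, had 1 UMI in each library of the dividing cells, and its CPM in resting medullary cells was 20.0-fold higher (95% counting interval 5.43 to 167). This interval, too, leaves out the spread between cells and libraries.

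The resting medullary sums also held more UMIs of other stroma. The 7 fibroblast markers summed to 318 and 1284 CPM in dividing medullary cells, against 1828 and 2853 CPM in resting medullary cells, with Pdgfra at 0 in the dividing cells of library 1. Of the 676 fibroblast-marker UMIs in the dividing medullary cells of library 1, 397 lay in a single cell. The 3 mesothelium markers summed to 77.7 and 83.4 CPM, against 373 and 226 CPM, with Upk3b at 0 in the dividing cells of both libraries. With cells high in these markers or without an Epcam UMI left out, 70 and 25 dividing medullary cells stayed. Lower genes then numbered 11 of 33 for epithelial identity and 8 of 20 for mimetic genes. They numbered 11 of 26 for self-antigens and 6 of 23 for receptors, against 657 of 12260 over all genes. Among medullary cells with an Aire UMI, a set chosen by a gene that itself differed, the lower genes numbered 2 of 32, 0 of 12, 3 of 26 and 0 of 20, with medians of -0.49, -0.60, -1.66 and -0.82. Over all genes, 256 of 10822 were lower among these cells, against 900 of 13408 without that choice. The part of other stroma in these differences was otherwise not tested.

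Many genes known to be induced by tissue digestion were lower in dividing medullary cells. Of 20 tested dissociation stress genes, 0 were higher and 12 lower, with a median log2 fold of -1.43. Atf3 stood at 39.5 and 58.5 CPM in dividing medullary cells, against 272 and 263 CPM in resting medullary cells (-2.56, SE 0.490), Fos at 224 and 312 CPM, against 1001 and 962 CPM (-1.90, SE 0.433), and the heat shock gene Hspb1 at 310 and 268 CPM, against 1164 and 1087 CPM (-2.00, SE 0.489). Their part in the other differences was not tested.

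Of 22 checkpoint and p53 genes, 9 were higher and 1 lower, with a median log2 fold of 0.96. The higher genes repair or sense damaged DNA. Many are made in S phase, so they track the gate on dividing genes and their calls are no separate finding. Brca1 stood at 43.3 and 30.2 CPM in dividing medullary cells, against 4.47 and 2.37 CPM in resting medullary cells (3.31, SE 0.412), and Chek1 at 18.4 and 16.0 CPM, against 2.52 and 1.97 CPM (2.85, SE 0.505). The lower gene was Phlda3, a p53 target, at 48.5 and 65.6 CPM, against 142 and 163 CPM (-1.51, SE 0.346). Of 30 ribosome biogenesis and nucleotide synthesis genes, 2 were higher and 0 lower, with a median of 0.91 and 27 of the 30 higher in both libraries. These were Umps, the last enzyme of UMP synthesis (1.92, SE 0.417), and Nme1, a nucleoside diphosphate kinase (1.28, SE 0.389). Over all genes tested, 4.7% were higher, so 2 of 30 is not read as a result about this list.

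**Figure D4:**
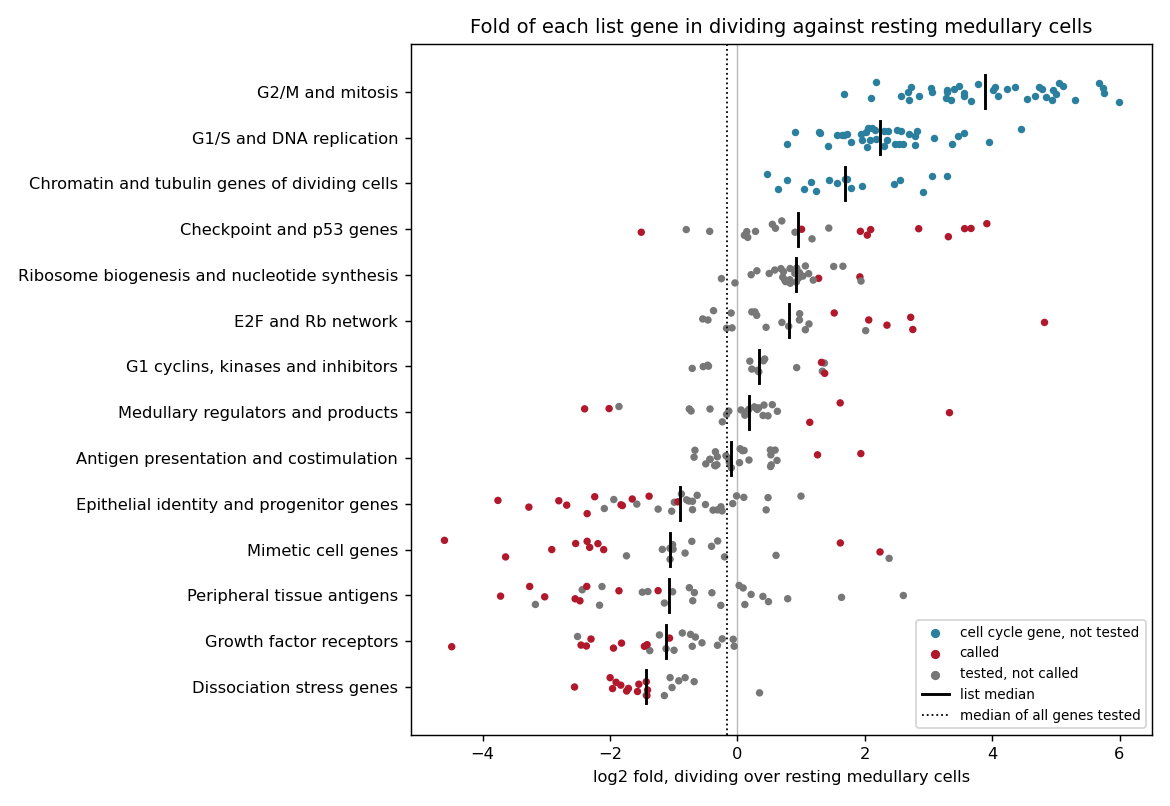
Log2 fold of dividing over resting medullary cells for each gene of 14 lists; black bars are list medians and the dotted line the median of all genes tested, -0.16. The 3 cell cycle lists at the top follow from the gate and were not tested, and the lists of epithelial identity, mimetic genes, self-antigens, receptors and stress genes lie to the left, with medians from -1.43 to -0.90.

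Among genes outside the lists, the lowest folds were again those of tissue-restricted genes. Bpifa1, a secreted airway protein, stood at 6.12 and 14.2 CPM in dividing medullary cells, against 165 and 684 CPM in resting medullary cells (-5.29, SE 0.693). Avp, the hormone vasopressin, and Cxcl5, a chemokine, had 0 UMIs in the dividing cells of both libraries, and their sums were at least 26.1-fold and 21.7-fold lower there than in resting medullary cells, against a floor of 3 counts over the class. The dividing class was likewise at 0 for Cstdc5 and Aqp4, at least 28.4-fold and 14.6-fold lower. These bounds take each UMI as an independent count, and the resting cells that held these UMIs were not counted. If few cells hold them, 133 dividing cells, against 1255 resting cells, may miss them with no difference in level.

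Outside the lists, the genes with the highest folds were cilium genes and replication genes. Pclaf, a partner of PCNA, stood at 308 and 294 CPM in dividing medullary cells, against 4.05 and 21.3 CPM in resting medullary cells, and the histone gene Hist1h1b at 421 and 234 CPM, against 5.31 and 32.3 CPM. Both are made in S phase and follow the gate. The other 6 of the 8 highest genes were Dynlrb2, Lrrc23, Deup1, Ccno, Meig1 and Tekt1, most of them known from motile cilia.

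The cilium genes came from a small group of cells. A list of 12 cilium genes (Mcidas, Ccno, Deup1, Foxj1, Dnah10, Zmynd10, Lrrc23, Tekt1, Dynlrb2, Cfap65, Tmem212 and Crocc2) was drawn up after these values were seen, so it was not tested. In library 1, 5 dividing medullary cells held 62 to 256 UMIs of these genes, and in library 2, 2 cells held 246 and 304, whereas the other dividing medullary cells held at most 12 in library 1 and at most 5 in library 2. Mcidas, the regulator that starts the making of many cilia in a cell, stood at 38.6 and 44.3 CPM in dividing medullary cells, against 0 UMIs in the resting medullary cells of both libraries. At 20 or more such UMIs, 0 of 620 and 0 of 635 resting medullary cells were found, and 3 of 343 and 0 of 446 cells with 1 to 3 dividing UMIs. Of the dividing cortical cells, 1 of 4 in library 1 and 0 of 7 in library 2 passed the same limit, and Mcidas stood at 50.4 CPM and Ccno at 282 CPM in those 4 cells. The 7 cells were given no cell type name.

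In pooled values, the 7 cells differed from the other dividing medullary cells in more than cilium genes. Pooled over the cells of a library, the G2/M list took 46.4 and 55.4 UMIs per 10000 in the 7 cells, against 33.9 and 29.0 in the other dividing medullary cells, and the G1/S list took 9.77 and 7.66, against 25.1 and 17.5. Aire took 0.722 and 0.359 UMIs per 10000, against 5.13 and 3.50, and 4 of the 7 cells had an Aire UMI. Of the other dividing medullary cells, 53 of 72 and 18 of 54 had an Aire UMI. Pooled values give deep cells more weight. Unscaled G1/S list UMIs per cell ran from 19 to 45 and from 22 to 42 in the 7 cells. In the other dividing medullary cells they ran from 1 to 331 and from 0 to 257, so the ranges overlap. Foxn1 had 0 UMIs in all 7 cells, which held 15238 to 51340 UMIs each. These cells were picked by a measured value after it was seen, so the values are a description of single cells. Without them, 1130 genes were called against resting medullary cells.

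**Figure D5:**
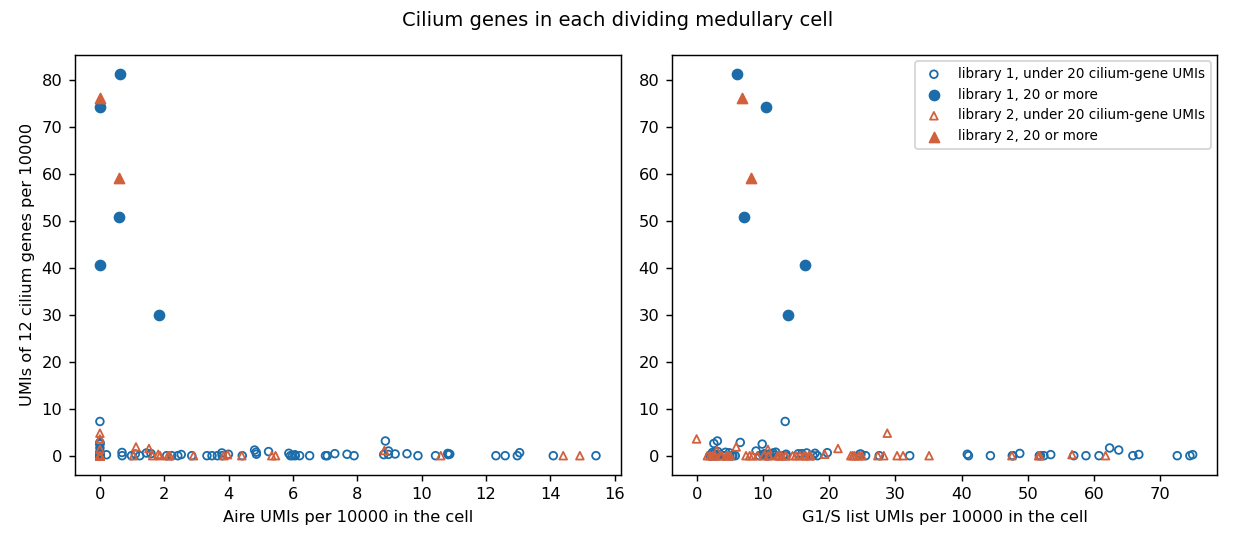
UMIs of 12 cilium genes per 10000 in each of the 133 dividing medullary cells, against Aire UMIs per 10000 (left) and G1/S list UMIs per 10000 (right); filled points are cells with 20 or more cilium-gene UMIs. The 5 filled cells of library 1 and 2 of library 2 lie high on the cilium axis and low in Aire and G1/S UMIs, where many of the other cells lie too.

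Against dividing thymocytes, which passed the same gate on dividing genes, 3847 of 13408 genes were called (28.7%), 2265 higher (16.9%) and 1582 lower (11.8%) in dividing medullary cells. Under another scaling, DESeq2's size factors, the split was 2599 higher and 1095 lower, and the median over all genes was 0.15 in place of -0.10. Library 1 gave only 11 dividing thymocytes, which also carried 9636 CPM of fibroblast markers, against 318 CPM in dividing medullary cells and 1648 CPM in the dividing thymocytes of library 2.

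Many cycle genes outside the gate were lower per UMI in dividing medullary cells than in dividing thymocytes. Of the G1/S list 0 were higher and 26 of 38 lower (median log2 fold -1.68), of the G2/M list 0 higher and 29 of 40 lower (-1.49), and of the chromatin and tubulin list 0 higher and 13 of 17 lower (-1.63). Over all genes tested, 16.9% were higher and 11.8% lower. Dnmt1, the maintenance DNA methyltransferase, stood at 84.3 and 51.4 CPM in dividing medullary cells, against 239 and 334 CPM in dividing thymocytes (-2.28, SE 0.351), and Cenpa, the centromeric histone, at 66.8 and 49.7 CPM, against 299 and 298 CPM (-2.40, SE 0.444). Mki67, a gene of the gate, stood at 320 and 321 CPM, against 1350 and 991 CPM. The gate asks for a smaller share of a deep cell's UMIs, and the medians were 27275 and 3689 UMIs in dividing medullary cells, against 12498 and 2739.5 in dividing thymocytes. The G1/S median was -0.70 in library 1 and -2.47 in library 2, and the part of depth in these differences was not tested.

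Dividing medullary cells and dividing thymocytes differed in E2F genes. E2f2 stood at 22.6 and 23.1 CPM in dividing medullary cells, against 140 and 160 CPM in dividing thymocytes (-2.67, SE 0.437), and E2f8 at 20.2 and 12.4 CPM, against 133 and 80.1 CPM (-2.65, SE 0.524). E2f3 (-1.67) and E2f4 (-2.01) were lower as well, and E2f1, E2f5 and E2f6 did not pass the test (-1.27, 0.63 and -0.96). E2f7 was as high in dividing medullary cells as in dividing thymocytes or higher, at 39.1 and 33.7 CPM, against 20.0 and 15.8 CPM, but its fold of 0.73 (SE 0.461, edgeR adjusted p = 0.25) was not called and was -0.03 without the 7 cilium-gene cells. Of 23 tested network genes, 0 were higher and 8 lower, with a median of -1.23.

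Ccnd2 stood at 901 and 477 CPM in dividing medullary cells, against 26.6 and 44.5 CPM in dividing thymocytes (log2 fold 3.78, SE 0.676), and Ccnd1 at 99.8 and 115 CPM, against 20.0 and 9.89 CPM (3.12, SE 0.547). Ccnd3, a cyclin known from thymocyte expansion, went the other way, at 44.2 and 49.7 CPM, against 532 and 513 CPM (-3.64, SE 0.365). The inhibitors split in the same manner. Cdkn2a stood at 85.7 and 95.8 CPM, against 0 and 2.23 CPM (5.01, SE 0.457), Cdkn2b at 51.8 and 62.1 CPM, against 0 and 1.98 CPM (4.49, SE 0.478), and Cdkn1a, the p53 target p21, at 212 and 360 CPM, against 59.9 and 21.3 CPM (3.03, SE 0.471). Cdkn2d, the inhibitor p19, stood at 28.2 and 40.8 CPM, against 226 and 168 CPM (-2.70, SE 0.310). In all, 7 of 15 G1 genes were higher and 4 lower, with a median of 0.07.

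Against dividing cortical epithelial cells the comparison rests on 11 cells, 4 in library 1 and 7 in library 2. Of 13408 genes, 74 were called (0.552%), 24 higher (0.179%) and 50 lower (0.373%) in dividing medullary cells. With so few cells, a gene that was not called may still differ. Under DESeq2's size factors the split was 10 higher and 62 lower. The median over all genes was 0.59, and folds here are relative to it. Cortical genes follow from the gate, such as Ctsl, the protease of cortical antigen processing, at 255 and 236 CPM in dividing medullary cells, against 5321 and 2200 CPM in dividing cortical cells.

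Of the lists, 3 of 17 chromatin genes, 2 of 38 G1/S genes and 0 of 40 G2/M genes were higher and none was lower in dividing medullary cells than in dividing cortical cells. Over all genes tested, 0.179% were higher and 0.373% lower. H2afz stood at 1992 and 2150 CPM, against 524 and 844 CPM (1.97, SE 0.298), and Ptma, an abundant chromatin protein, at 6568 and 5179 CPM, against 1602 and 2864 CPM (1.78, SE 0.285). Spib, a factor of medullary maturation, had 226 and 74 UMIs, against 1 UMI and 0 UMIs, a CPM ratio of 14.8 (95% counting interval 2.63 to 586). That interval leaves out the spread between cells and libraries. Foxn1 stood at 106 and 138 CPM, against 242 and 60.3 CPM, and Aire at 482 and 303 CPM, against 423 and 211 CPM, and neither was called.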

How the data were processed

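Both libraries were single-cell 3' RNA libraries of the 10x platform. The deposited matrices hold UMI counts per gene and barcode; the file headers name Cell Ranger 6.0.0, while Cell Ranger 7, Seurat 4 and mm10 stand in the submitters' processing notes. The deposited counts were used as raw counts over 32285 features. Cells were filtered and gated as described, with no doublet caller. Raw UMIs were summed per class and library (6 classes, 12 sums) and tested with edgeR 4.0.16 in R 4.3.3 (quasi-likelihood test, TMM scaling, low-count filter, library as a block, 5 residual degrees of freedom), with Benjamini-Hochberg adjustment over 13408 genes. The 18 genes of the gate stayed in the library sizes and were not tested. Per-library log2 folds used log CPM with a prior count of 2. The procedure was tested on simulated data. Of genes changed 2-fold, it called 21.6% against resting medullary cells, 8.2% against dividing thymocytes and 0% against dividing cortical cells. Of genes changed 4-fold, it called 75.3%, 62.9% and 23.7%. A gene that was not called may thus still differ. DESeq2 1.42.0 and other gates, depths and scalings were tried as alternatives. Replicate numbers pair classes because they come from the same library.

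The cells, gene lists and gates were chosen with earlier results of these data known. Genes were named by a fixed rule: the Foxn1, Aire, Ccl21a, E2F and D-type cyclin genes, the 8 highest and 8 lowest called genes with 30 or more UMIs in the higher class of each library, and the 3 most changed called genes of each list. Of lists with no test, genes with high CPM were named. Fezf2, Krt5, Trp63, Eya1, Fos, Insm1, Foxj1, Tfdp1, Mybl2, Brca1, Chek1, Phlda3, Fgfr2, Tmem158, Utf1, Cdkn1a, Cdkn2d, Dut, Hells, Pcna, Cd74 and Mcidas were chosen after their values were seen. Promoters came from RefSeq tables on GRCm38.p6. Shares and figures were made with Python 3.11.15, numpy 2.4.6, scipy 1.17.1 and matplotlib 3.10.9.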

Additional observations from a re-analysis of the deposited data

How the results depend on the processing

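Genes called against resting medullary cells numbered 1530, and 2316 with no low-count filter, 632 with under 2 thymocyte UMIs per cell, 48 with cells thinned to 1000 UMIs, 491 among Aire-positive cells and 2777 with only medullary sums. Against dividing cortical cells they numbered 74, and 360 with no low-count filter, 29 with resting cells at up to 1 dividing UMI, 20 at a cortical limit of 10, 0 thinned and 273 by DESeq2's test. Against dividing thymocytes they numbered 3847, and 2014 with under 2 thymocyte UMIs and 318 thinned. Without the replicate block, which pairs classes of the same library, the counts were 1231, 31 and 4054. The setting with under 2 thymocyte UMIs left no dividing cortical cells in either library and gave no value there. A single library leaves no residual degrees of freedom, so its log2 values stand in for a test.

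The dividing share was 3.77% and 2.76% with under 2 thymocyte UMIs, and in library 2 it was 7.04% at 2000 or more UMIs, 2.55% at 6 or more dividing UMIs and 6.49% in Epcam-positive cells low in other markers. At 2000 UMIs and unthinned, Aire was found in 44.2% and 72.7% of dividing cells of library 1 and 20.8% and 33.9% of library 2, and Foxn1 in 18.2% and 62.3%, and 12.5% and 25.0%. Unthinned, Ccl21a was found in 58.4% and 44.6%.

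Directions reversed as follows, and the cause was not tested. Against resting cells these were, among Aire-positive cells, a choice that itself fixes Aire, Aire (-0.0487), Fezf2 (-0.15), Cd40 (-0.0220) and the medullary list (-0.32). By library, E2f1 was -0.18 without replicate 1 and 2.91 without replicate 2, E2f3 -0.0168 and 1.07, and E2f6 -0.86 and 0.13. E2f4 was 0.34 with under 2 thymocyte UMIs, and E2f6 0.0162 at 6 or more dividing UMIs and 0.0906 with resting cells at up to 1 dividing UMI. The antigen presentation median was 0.00614 with no block, 0.11 at 2000 UMIs, 0.0496 at 6 dividing UMIs, 0.17 at cortical limit 10, 0.49 with under 2 thymocyte UMIs, 0.17 with at most 5 per 10000, 0.0936 without cilium-gene cells and 0.000802 by DESeq2. Against dividing cortical cells, Foxn1 was 2.15 at 6 dividing UMIs and 1.59 without replicate 1 (-0.94 without replicate 2), and Aire -0.27 at 6 dividing UMIs and -0.13 at cortical limit 10. Against dividing thymocytes, E2f6 was 0.58 without replicate 2 and -1.57 without replicate 1, and E2f7 -0.66 with under 2 thymocyte UMIs and -0.0284 without cilium-gene cells. The settings on 5 thymocyte UMIs per 10000, medullary sums, cilium-gene cells and other markers were chosen after seeing the data. Of the other values of named genes, 999 kept direction and, where tested, side of the threshold, 114 lost the call, 9 gained it and 39 with no test moved beyond the spread between libraries, as did 121 list medians.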

Other observations

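Tmem158 and Utf1 were singled out after their values were seen, and belong to no list above. Tmem158, a membrane protein known from RAS signalling, stood at 356 and 278 CPM in dividing medullary cells, against 74.1 and 61.1 CPM in resting medullary cells (log2 fold 2.19, SE 0.263, edgeR adjusted p = 0.000382). It was called in 15 of 15 other settings, and among Aire-positive medullary cells its fold was 1.59. Utf1, a chromatin factor known from embryonic stem cells, stood at 328 and 211 CPM, against 57.5 and 60.3 CPM (2.17, SE 0.312, adjusted p = 0.000883), and was called in 13 of 15 other settings. The groups did not overlap for either gene, and the share of all genes without overlap was not counted. Of 13408 genes, 3861 were higher and 6056 lower in both libraries.

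Within the dividing medullary cells, Aire UMIs were found in 56 of 77 and 19 of 56 cells. The Aire-positive cells were deeper, with medians of 31134 and 13786 UMIs, against 15238 and 2565 UMIs in those without an Aire UMI. A Ccl21a UMI was found in 33 of the 56 and 8 of the 19 Aire-positive cells, against 12 of 21 and 17 of 37 of those without an Aire UMI.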
